A study of Mus musculus with 54 samples.

Results

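Replication-dependent histone genes, which encode the H1, H2A, H2B, H3 and H4 proteins made in S phase, were followed in polyA-selected RNA from mouse embryonic stem cells during differentiation in retinoic acid. Members were taken by symbol: of 21960 genes in the expression table, 67 had a symbol that starts with Hist1h, Hist2h, Hist3h or Hist4h, and 49 of these reached 1 FPKM (fragments per kilobase of transcript, scaled to the mapped fragments of the library) in at least 3 libraries. The 49 members comprise 4 H1, 13 H2A, 14 H2B, 9 H3 and 9 H4 genes. By locus, 41 lie in the Hist1 cluster, 6 in the Hist2 cluster and 2 in the Hist3 cluster, and the 1 Hist4 row missed the level. Hist1h2be (3 libraries at 1 FPKM or more), Hist1h1e and Hist1h2bl (4 libraries each) stood just inside the level. The 3 libraries of Hist1h2be were all of day 20, so its place in counts of genes highest or higher on day 20 was set by the level. Hist1h1a, Hist1h2bf, Hist1h3a, Hist1h3b and Hist1h4d reached 1 FPKM only in libraries of days 0 and 2. Their place in counts of genes that fell after day 2 was likewise set by the level. Hist2h2be reached it only on days 4, 10 and 20, and further members, such as Hist1h1b, in no library after day 4. Hist1h2bm and Hist2h2ac (2 libraries each) stood just outside the level.

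The cells were R1, a mouse embryonic stem cell line, grown with LIF and serum replacement. Per the labels, hanging drops were used for 48 h to form embryoid bodies, and these were moved to low-attachment wells with retinoic acid (0.5 mM as the labels give it, a high dose for such a protocol that was not checked here), a vitamin A derivative that drives neural differentiation, for up to 20 days. RNA libraries were made on day 0 (7 libraries), day 2 (3), day 4 (3), day 10 (5) and day 20 (4), all from the same line, with no genetic change named. The labels do not say whether day 0 precedes the hanging drops, nor whether libraries came from separate cultures, so p-values measure the spread between these libraries only.

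Histone mRNAs of this class are made when DNA is replicated, when new DNA has to be packed into nucleosomes of H2A, H2B, H3 and H4 that linker histone H1 then binds. Most end in a stem-loop bound by the protein SLBP in place of a polyA tail, and are degraded when replication stops. Some of the genes can also give polyadenylated mRNA, described above all in differentiated cells that no longer divide, and replacement histones, encoded elsewhere with ordinary polyadenylated mRNA, are made throughout the cell cycle. PolyA selection therefore leaves out most stem-loop mRNA, so the levels below are those of the RNA that was captured, and how much of it had a tail was not measured. In such bulk samples, fewer cells that express a gene and less RNA per cell cannot be told apart.

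Promoter windows are printed for 4 genes with different courses, to show how the start regions of these genes differ. Hist1h1c encodes the linker histone with the highest level of the 4 H1 members on day 20, Hist1h1b a linker histone that fell, Hist1h2bg an H2B gene that rose late, and Hist3h2ba an H2B gene that was highest on day 4. Each window runs from 250 bases before to 50 bases after the start annotated by RefSeq on GRCm38.p6, 5′ to 3′ on the gene's strand. Capitals mark the CCAAT box, the TATAAA form of the TATA box, the motif AAACACA known from H1 promoters, and the octamer ATTTGCAT, each on either strand. The windows lie at chr13:23738557-23738856 (plus strand, Hist1h1c), chr13:21780576-21780875 (minus strand, Hist1h1b), chr13:23571150-23571449 (plus strand, Hist1h2bg) and chr11:58948661-58948960 (plus strand, Hist3h2ba).
Hist1h1c: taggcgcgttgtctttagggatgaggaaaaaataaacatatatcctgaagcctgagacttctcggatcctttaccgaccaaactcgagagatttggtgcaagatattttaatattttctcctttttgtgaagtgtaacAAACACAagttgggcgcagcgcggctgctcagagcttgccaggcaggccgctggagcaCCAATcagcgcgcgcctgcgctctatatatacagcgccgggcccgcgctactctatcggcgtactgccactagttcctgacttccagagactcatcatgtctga
Hist1h1b: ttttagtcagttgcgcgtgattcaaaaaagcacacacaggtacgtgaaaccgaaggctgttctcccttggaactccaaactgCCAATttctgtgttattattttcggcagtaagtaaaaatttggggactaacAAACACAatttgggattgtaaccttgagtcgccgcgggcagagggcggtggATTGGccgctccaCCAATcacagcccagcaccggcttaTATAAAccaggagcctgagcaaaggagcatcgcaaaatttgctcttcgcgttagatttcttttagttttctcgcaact
Hist1h2bg: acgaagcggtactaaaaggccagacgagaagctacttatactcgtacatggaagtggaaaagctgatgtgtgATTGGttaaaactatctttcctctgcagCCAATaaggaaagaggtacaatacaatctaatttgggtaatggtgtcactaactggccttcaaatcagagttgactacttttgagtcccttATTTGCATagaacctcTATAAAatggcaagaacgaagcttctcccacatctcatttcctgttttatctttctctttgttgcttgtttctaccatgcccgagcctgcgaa
Hist3h2ba: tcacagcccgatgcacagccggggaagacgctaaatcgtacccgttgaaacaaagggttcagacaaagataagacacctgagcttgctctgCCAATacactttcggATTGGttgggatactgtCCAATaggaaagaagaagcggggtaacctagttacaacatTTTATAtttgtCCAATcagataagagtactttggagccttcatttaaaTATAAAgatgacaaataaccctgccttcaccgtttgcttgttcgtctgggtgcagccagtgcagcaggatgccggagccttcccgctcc

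Exactly 1 window was found for 44 of the 49 members, and in none of these did matches of 2 motifs share bases. CCAAT or its reverse was present in 37 of the 44 windows (84.1%), against 37.4% of the 32851 RefSeq windows of the same length. It was in all 4 H1, 12 H2A, 11 H2B and 8 H3 windows and in 2 of 9 H4 windows. The octamer was in 8 of 44 windows (18.2%, against 1.74% of all windows), 4 of them H2A and 4 H2B. Among these are Hist1h2ae with Hist1h2bg and Hist1h2ah with Hist1h2bk, pairs on opposite strands whose windows share 279 and 277 of 300 bases. TATAAA was in 26 of 44 (59.1%, against 13.6%). AAACACA was in 4 of 44 (9.09%, against 7.18%), of which 3 belong to H1 genes. The 44 windows are not all separate stretches of DNA. In 6 pairs of an H2A and an H2B member they overlap by 252 to 279 of 300 bases. The windows of Hist1h2bq and Hist1h2br are identical at 300 of 300 positions. A match within an overlap is counted for both genes, so the shares are of windows and not of separate sites. A match is a stretch of letters and was not tested as a binding site.

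The classes are described first by their summed levels (plot of class sums). All 49 members together gave 265 ± 78.0 FPKM on day 0 (SD, n = 7), 379 ± 28.2 on day 2 (n = 3), 223 ± 14.4 on day 4 (n = 3), 147 ± 19.1 on day 10 (n = 5) and 355 ± 44.5 on day 20 (n = 4). The sums of day 0 and day 20 were made up differently. H1 genes summed to 7.45 ± 1.44 FPKM on day 0 and 67.3 ± 4.99 on day 20, or 2.92% and 19.1% of the total. H3 genes summed to 27.1 ± 10.1 and 5.72 ± 1.24 FPKM, or 10.1% and 1.61%. H4 genes summed to 48.7 ± 21.8 and 17.96 ± 3.42 FPKM, or 17.7% and 5.04%. H2A genes held 48.6% and 42.6%, and the copies Hist2h2aa1 and Hist2h2aa2 together made up 124 of 151 FPKM of the H2A sum on day 20. H2B genes held 20.7% and 31.7%. The 4 classes of the nucleosome core were thus captured in different proportions at each day, and without the 3 most abundant members (Hist2h2aa1, Hist1h2ap and Hist3h2ba) the H2A share on day 20 was 19.2% ± 8.06 (SD, n = 4) and the H2B share 39.6%. That H2A share still holds the copy Hist2h2aa2, which was listed at 0 in day-20 replicate 3, where the H2A sum without those members was 16.2 FPKM against 37.0 to 60.8 in the other 3 libraries. These sums carry no test.

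**Figure D1:**
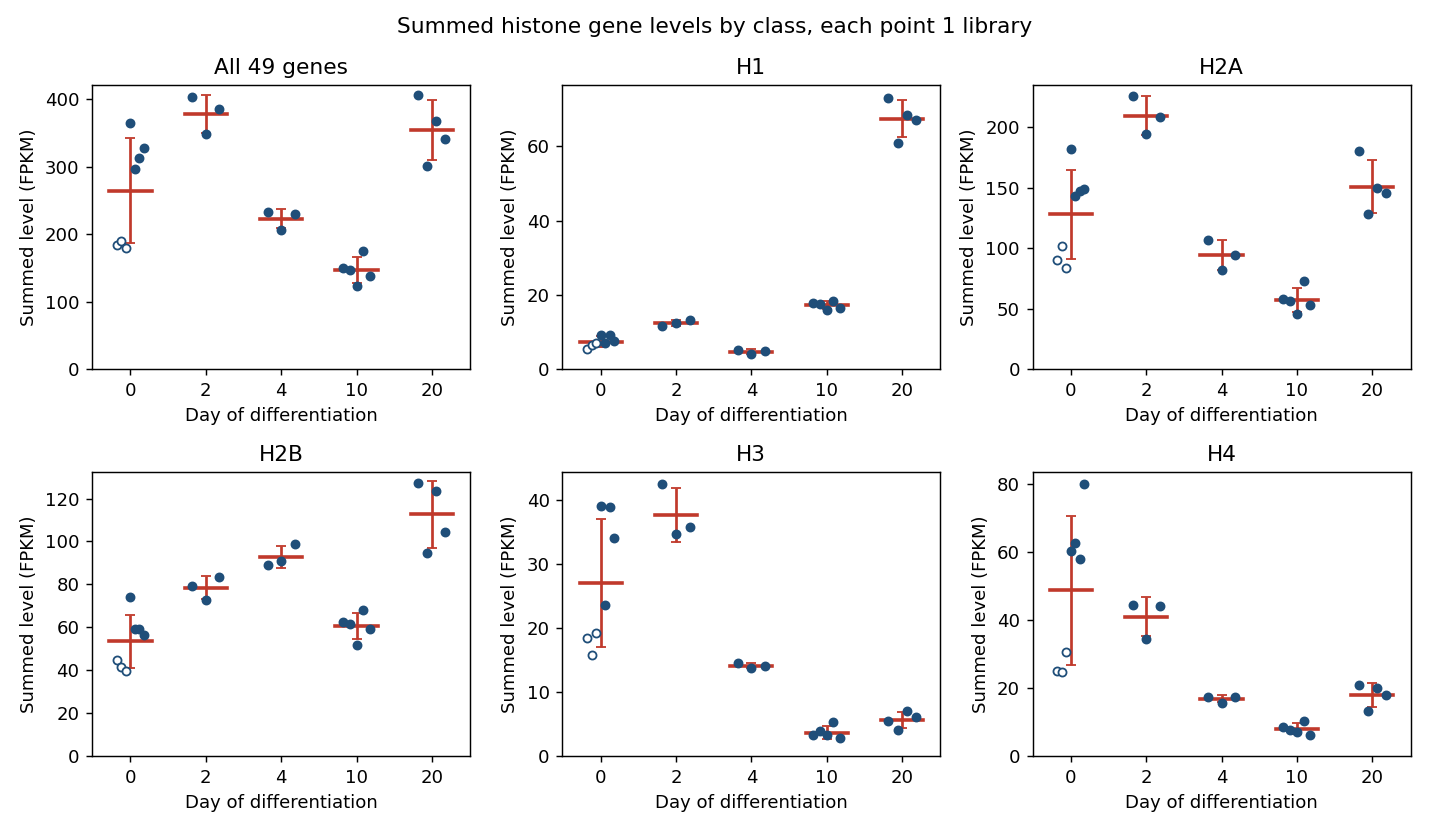
Summed level (FPKM, linear axes from 0) of all 49 histone genes and of each class against day of differentiation. Each point is 1 library (open circles are day-0 replicates 1 to 3), red lines give the mean and bars the SD. The day-20 H1 sums (60.9 to 73.0 FPKM) stand above all other days, mean H3 sums go from 37.7 on day 2 to 14.1 on day 4 and 3.71 on day 10, and the day-0 points split in every class but H1, where the 2 sets lie close together.

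The day-0 libraries formed 2 sets that no label accounts for. Replicates 1 to 3 had summed histone levels of 180 to 190.4 FPKM and replicates 4 to 7 of 296 to 365, and the mean of 45 of 49 members was higher in replicates 4 to 7. The share of all genes tested with a higher mean in replicates 4 to 7 was not computed. In 14 members every library of replicates 4 to 7 lay above replicates 1 to 3, and in 0 members below, patterns found in 21.9% and 14.5% of all genes tested. The split was thus not limited to histone genes: Sox17, an endoderm gene, was at 5.79 to 6.47 FPKM in the first set and 23.1 to 26.3 in the second, Acta2, a smooth muscle actin, at 27.8 to 28.3 and 4.26 to 5.21, and Ccne1, the cyclin of S phase entry, at 131 to 133 and 85.8 to 92.4. The part of these differences in the histone levels was not tested. The H4 sum was 24.9 to 30.6 FPKM in the first set and 57.9 to 79.9 in the second. Comparisons with day 0 below are therefore given without each set where that matters. Between libraries of a day the correlation across genes was 0.99 to 0.9982, no 2 libraries were identical, and the deposited values summed to 472122 to 678222 FPKM per library.

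**Figure D2:**
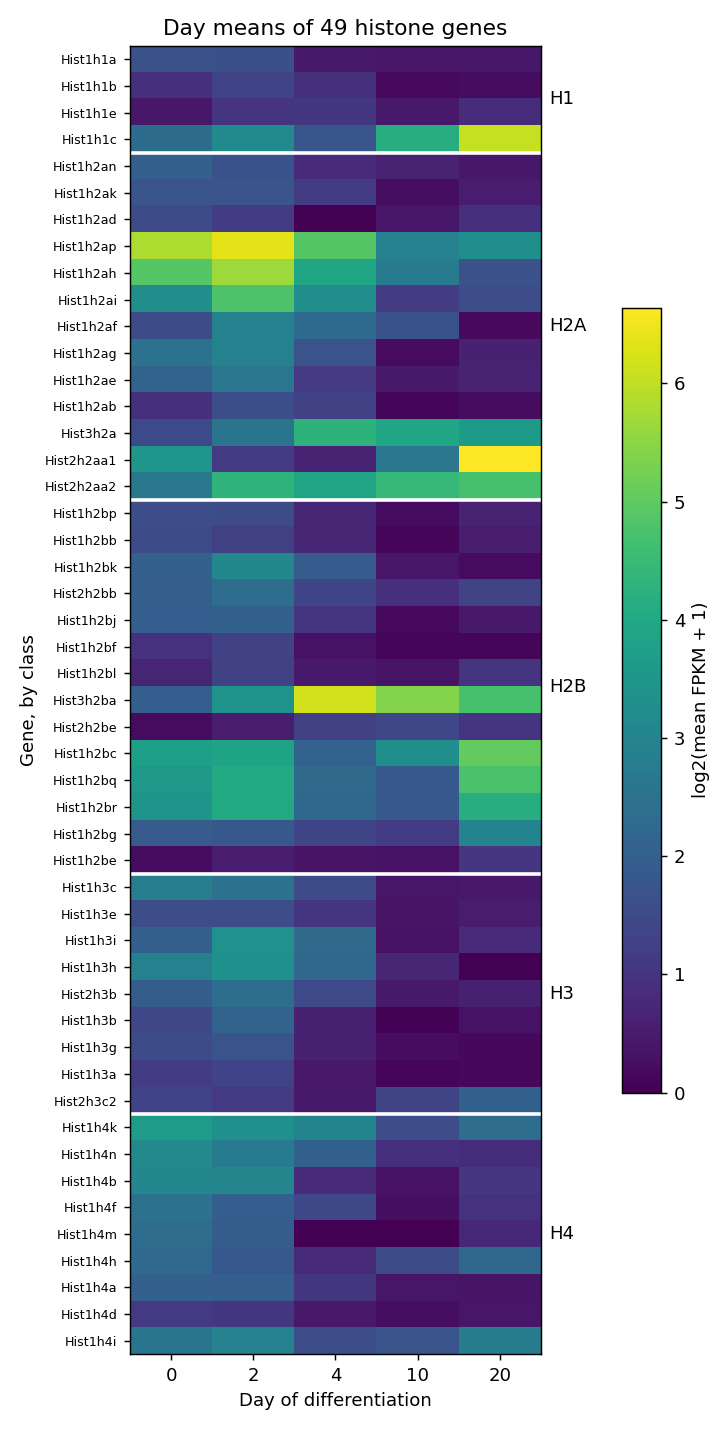
Day mean of each of the 49 histone genes (rows, grouped by class) at days 0, 2, 4, 10 and 20 (columns), coloured by log2(mean FPKM + 1). Most H3 and H4 rows are brightest at days 0 and 2, while Hist1h1c and Hist2h2aa1 are brightest on day 20 and Hist3h2ba on day 4.

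Across the days, 47 of 49 members differed by limma's moderated F test at an adjusted p under 0.05, where 99.3% of the 14982 genes tested did. Hist1h2an and Hist1h2bl did not pass. The mean was highest on day 0 for 16 members, on day 2 for 20, on day 4 for 3, on day 10 for 1 and on day 20 for 9. Of 9 H4 genes, 8 had their highest mean on day 0, whereas 6 of 9 H3 and 7 of 13 H2A genes had it on day 2 and 5 of 14 H2B genes had it on day 20. For H4 that day rests on the day-0 set: the median H4 difference between day 2 and day 0 was 0.40 without replicates 4 to 7 and -0.50 without replicates 1 to 3.

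From day 0 to day 2, 17 members rose, 1 fell and 31 did not pass the test (limma on log2(FPKM + 1), Benjamini-Hochberg adjusted over all genes tested). Of all genes tested, 42% were called higher and 32.1% lower, 74.1% in all. The median log2 difference was 0.34 over the members (0.54 without day-0 replicates 4 to 7, 0.13 without replicates 1 to 3 and 0.11 with quantile normalization) and 0.07 over all genes tested. By class, 3 of 4 H1, 7 of 13 H2A, 5 of 14 H2B, 1 of 9 H3 and 1 of 9 H4 genes rose, and Hist2h2aa1 was the 1 that fell. Its sum with the copy Hist2h2aa2 was 9.42 to 22.8 FPKM on day 0 and 18.3 to 21.4 on day 2. With day-0 replicates 4 to 7 left out, 30 members were called higher and 1 lower, and with replicates 1 to 3 left out, 14 and 8. In H3 and in H4, 5 of 9 genes were called higher without replicates 4 to 7, and 2 H3 and 3 H4 genes were called lower without replicates 1 to 3. Quantile normalization gave 11 and 4. For 14 members the day-2 libraries all lay above day 0, and for 1 all below, patterns found in 37.3% and 28.1% of all genes tested.

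From day 2 to day 4, 29 members fell, 3 rose and 17 did not pass, where 34% of all genes tested were called lower and 38% higher, 72% in all. The median log2 difference was -0.97, against 0.01 over all genes tested. The drop crossed all classes: 3 of 4 H1, 6 of 13 H2A, 8 of 14 H2B, 7 of 9 H3 and 5 of 9 H4 genes fell. Those that rose were Hist3h2a, Hist3h2ba and Hist2h2be. Among those that fell are Hist1h1a, Hist1h2bf, Hist1h3a, Hist1h3b and Hist1h4d, members through days 0 and 2 alone. Hist2h2be is a member through days 4, 10 and 20 alone. For 33 members the day-4 libraries all lay below day 2, and for 3 all above, patterns found in 37.4% and 40.8% of all genes tested.

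From day 4 to day 10, 22 members fell and 5 rose, where 32.3% of all genes tested were called lower and 41.4% higher, 73.7% in all. The median log2 difference was -0.48 (-0.78 with quantile normalization), against 0.07 over all genes tested. The fall took in 8 of 13 H2A, 4 of 14 H2B, 4 of 9 H3 and 4 of 9 H4 genes and 2 of 4 H1 genes. Hist1h1c, Hist2h2aa1, Hist1h2bc, Hist2h2be and Hist2h3c2 rose. With quantile normalization 34 members were called lower and 3 higher, Hist2h2be and Hist2h3c2 no longer passing. There were 12 members that fell at both this step and the one before, and the share of all genes tested that did so was not computed. For 23 members the day-10 libraries all lay below day 4, and for 6 all above, patterns found in 33.5% and 43% of all genes tested.

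From day 10 to day 20, 11 members rose and 6 fell, where 37.2% of all genes tested were called higher and 38.1% lower, 75.2% in all. The median log2 difference was 0.28 (0.089 with quantile normalization), against -0.02 over all genes tested. H2B supplied 5 of the 11 that rose, H1 and H4 2 each, and H2A and H3 1 each. Among the 5 is Hist1h2be, a member through day 20 alone. The pair of Hist3 genes, Hist1h2ah, Hist1h2af, Hist1h3h and Hist2h2be fell. Of the members that had fallen between days 2 and 4, 7 rose at this step, and the share of all genes tested with that course was not computed. The day-20 libraries all lay above day 10 for 12 members and all below for 4, each a pattern found in 34.5% of all genes tested. With day-0 replicates 4 to 7 or 1 to 3 left out of the fit, which changes its estimate of spread, 17 and 16 members were called higher, 5 of them H4 genes in both cases, and with only these 2 days fitted 16 were.

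Between the ends of the course, day 20 and day 0, 29 members were lower, 11 higher and 9 not called (plot of changes by gene). Among the lower are Hist1h1a, Hist1h2bf, Hist1h3a, Hist1h3b and Hist1h4d, members through days 0 and 2 alone. Among the higher is Hist2h2be, a member through days 4, 10 and 20 alone. Of all genes tested, 35.5% were called lower and 55.3% higher, 90.8% in all (6283 genes higher and 7175 lower with quantile normalization). The median log2 difference was -0.96 over the members and 0.38 over all genes tested. Without day-0 replicates 4 to 7 the members' median was -0.56 with 24 lower and 13 higher, and with quantile normalization it was -1.65. In H3, 8 of 9 genes fell and 1 rose (median -1.16). The H3 median was -0.85 with 6 lower without day-0 replicates 4 to 7, and -1.37 with 8 lower without replicates 1 to 3. In H4, 6 of 9 fell and 0 rose (median -1.24, or -0.31 with 4 lower and 1 higher when day-0 replicates 4 to 7 were left out, and -1.91 with 7 lower when replicates 1 to 3 were). In H2A, 8 of 13 fell and 2 rose (median -1.17). Without day-0 replicates 4 to 7, 7 H2A genes were lower and 3 higher (median -0.98), and without replicates 1 to 3, 9 and 2 (median -1.31). H2B was split, with 6 of 14 higher and 5 lower (median 0.05, but -0.11 without day-0 replicates 1 to 3). Among the 6 is Hist1h2be, a member through day 20 alone. H1 had 2 genes in each direction (median -0.14). With quantile normalization 3 H2B genes were higher and 6 lower (median -0.46), 1 H1 gene was higher and 3 lower (median -0.95), and all 9 H3 and all 9 H4 genes were lower (medians -1.90 and -2.08). Among Hist1 genes 28 of 41 fell and 6 rose, among Hist2 genes 1 of 6 fell and 3 rose, and both Hist3 genes rose. Quantile normalization gave 37 lower and 6 higher in all, with the median of all genes tested at -0.10, and rescaling each library to 1 sum gave 29 and 13, with that median at 0.58. This comparison shares its day-0 and day-20 libraries with steps above. The 6 that kept the call under quantile normalization were Hist1h1c, Hist2h2aa1, Hist3h2a, Hist3h2ba, Hist1h2bc and Hist1h2bq. The day-20 libraries lay wholly above day 0 for 11 members (50.7% of all genes tested) and wholly below for 18 (31.2%).

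**Figure D3:**
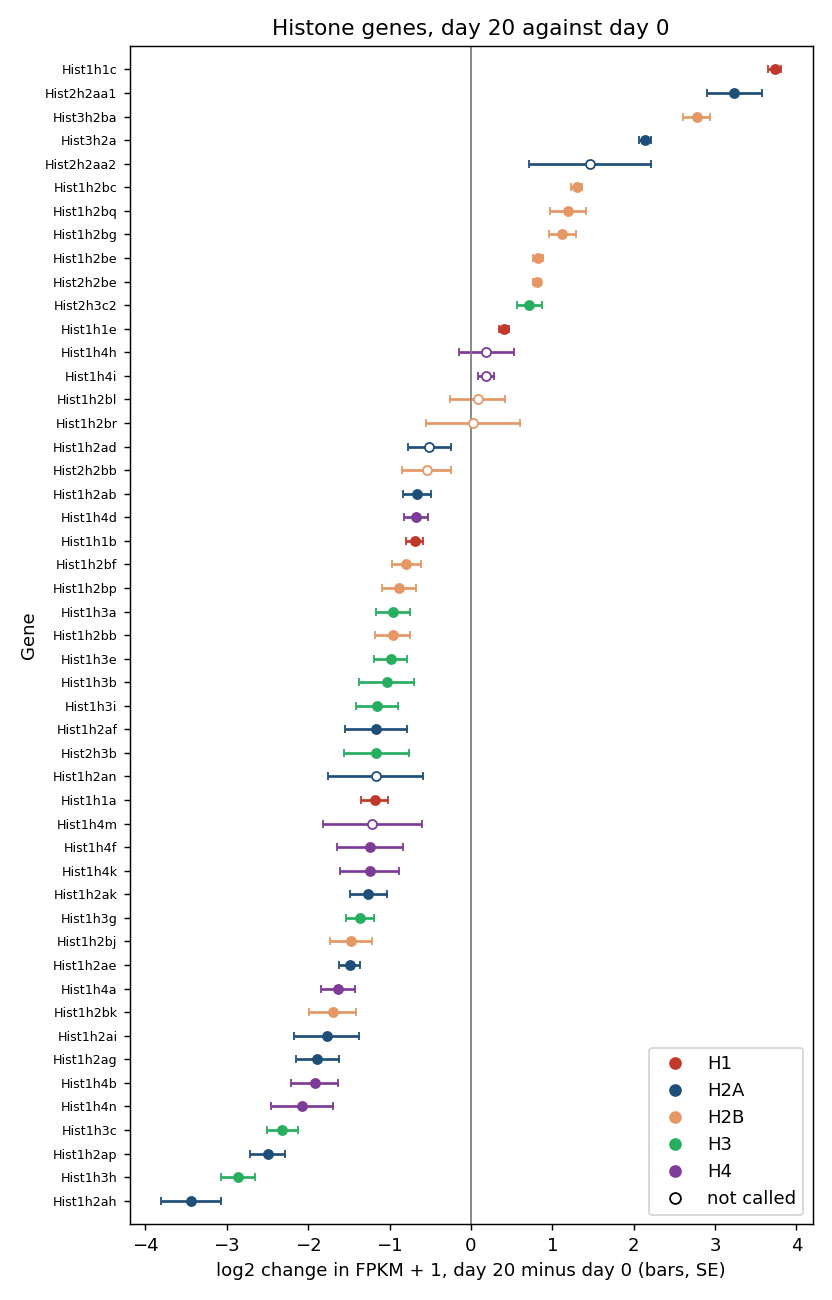
Difference between day 20 and day 0 in log2(FPKM + 1) for each of the 49 genes, ordered by size and coloured by class, with bars of 1 SE; open circles did not pass the test. Values run from -3.44 (Hist1h2ah) to 3.73 (Hist1h1c), and 8 of the 9 H3 genes lie below 0.

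Among linker histones, which bind DNA between nucleosomes, Hist1h1c went furthest. Its day-0 levels were 3.37 at the lowest, 3.84 at the median and 4.80 FPKM at the highest. They were 7.32, 8.46 and 8.11 FPKM on day 2 and 2.94, 2.46 and 1.89 on day 4. They then reached 17.1, 16.8, 15.3, 17.5 and 15.7 FPKM on day 10 and 71.5, 59.4, 67.0 and 66.1 on day 20. No library of any of these days overlapped the day before or after it. The gene rose by 0.83 (SE 0.09, adjusted p = 4.8e-08) on day 2, fell by 1.40 on day 4 (SE 0.11, adjusted p = 1.9e-10), and rose by 2.36 (SE 0.10, adjusted p = 3.21e-15) and 1.94 (SE 0.09, adjusted p = 1.94e-14) at the later steps, all on the log2 scale.

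The other H1 genes stayed low. Hist1h1a was at 1.14 to 3.15 FPKM on day 0, at 2.07, 1.66 and 2.44 on day 2 and at 0.16, 0.19 and 0.81 on day 4, and fell at that step by 1.16 (SE 0.21, adjusted p = 3.88e-05). It did not exceed 0.52 FPKM in any later library. Hist1h1b was at 0.53 to 1.24 FPKM on day 0, rose to 1.35, 1.34 and 1.84 on day 2 (log2 difference 0.42, SE 0.11, adjusted p = 0.00197), and was at 0.06 to 0.19 by day 10. Its fall from day 2 to day 4 (-0.40, adjusted p = 0.00953) was lost when day-2 replicate 3 (-0.31) or day-4 replicate 2 (-0.32) was left out. Hist1h1e stayed between 0.29 and 1.33 FPKM throughout, and its rise on day 20 over day 0 (0.40, SE 0.06, adjusted p = 3.25e-06) was -0.54 with quantile normalization. On day 20 nearly all captured H1 RNA of this class was thus from Hist1h1c, with 66.0 of 67.3 FPKM.

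H2A genes held the most abundant members at both ends. Hist1h2ap was at 34.4 at the lowest, 62.4 at the median and 77.8 FPKM at the highest on day 0, where replicates 1 to 3 (34.4 to 44.7) lay below replicates 4 to 7 (62.4 to 77.8). It was at 87.0, 79.2 and 80.7 FPKM on day 2, 32.5, 24.5 and 28.1 on day 4, and 6.09, 6.72, 6.57, 10.1 and 4.17 on day 10. On day 20 it was at 9.11, 7.34, 13.03 and 6.15 FPKM, overlapping day 10. It fell by 1.51 on day 4 (SE 0.28, adjusted p = 5.62e-05) and by 1.96 on day 10 (SE 0.25, adjusted p = 4.07e-07). Its rise on day 2 (0.62, adjusted p = 0.0232) did not pass without day-2 replicate 1 (0.58), day-2 replicate 3 (0.63) or day-0 replicates 1 to 3 (0.29).

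Hist1h2ah and Hist1h2ai are 2 other H2A genes of that cluster. Hist1h2ah was at 16.9 at the lowest, 26.6 at the median and 42.3 FPKM at the highest on day 0 and at 60.9, 43.7 and 44.2 on day 2. It was at 19.6, 6.77 and 15.9 FPKM on day 4, at 3.50 to 8.42 on day 10 and at 2.83, 1.09, 0 and 4.62 on day 20. The day-20 libraries lay below all day-0 libraries, with a log2 difference of -3.44 (SE 0.37, adjusted p = 1.19e-08), which was the furthest down of the 49. Its step from day 4 to day 10 (-1.13, adjusted p = 0.0224) was not called without day-4 replicate 1 (-0.85), day-4 replicate 3 (-0.99) or day-10 replicate 2 (-1.01). Hist1h2ai was at 3.64 to 18.02 FPKM on day 0 and at 22.6, 27.99 and 29.5 on day 2, a log2 difference of 1.67 (SE 0.44, adjusted p = 0.0019) with no overlap. It was at 9.59, 7.09 and 9.32 FPKM on day 4 and no higher than 3.99 afterwards. Hist1h2af rose on day 2 (1.53, SE 0.42, adjusted p = 0.00251) to 10.2, 3.74 and 5.78 FPKM, and on day 20 was listed at 0 in 3 libraries and at 0.48 in the other.

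**Figure D4:**
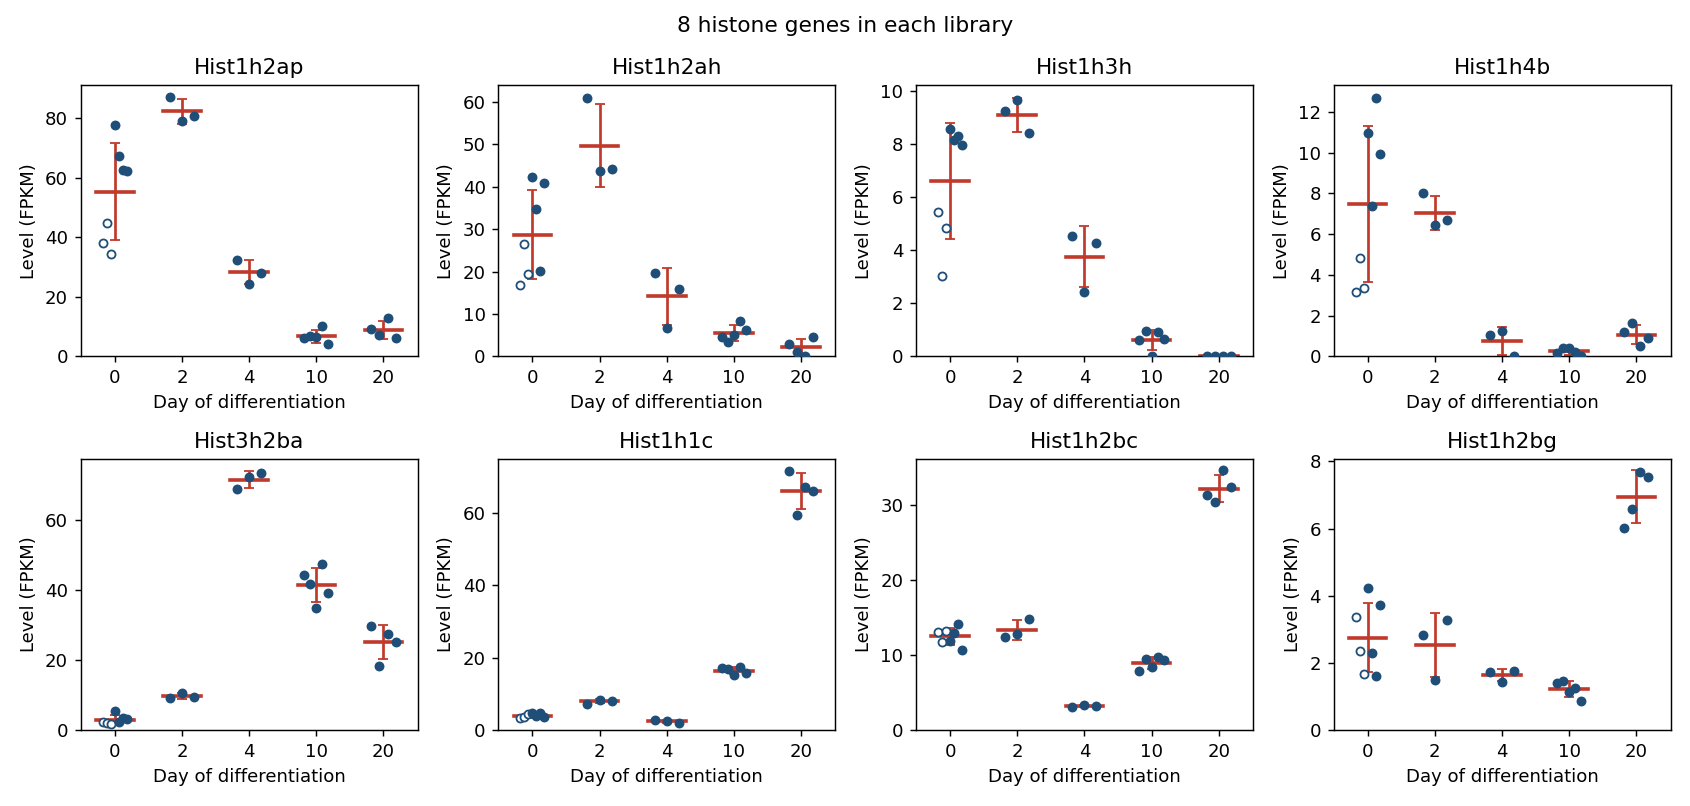
Level (FPKM, linear axes from 0) of 8 histone genes in each library by day, with red lines for the mean and bars for the SD; open circles are day-0 replicates 1 to 3. Hist1h2ap, Hist1h2ah, Hist1h3h and Hist1h4b decline after day 2, Hist3h2ba is highest on day 4 (68.6 to 73.2 FPKM), and Hist1h1c, Hist1h2bc and Hist1h2bg are highest on day 20.

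Hist2h2aa1 and Hist2h2aa2 encode H2A at the Hist2 locus and are known as copies of 1 gene, so their reads could be split between them in different ways. Their promoter windows were identical at 78 of 300 positions when laid base by base with no shift or gap allowed. A shift between the annotated starts would lower that count even for like promoters, so it does not measure how alike they are. The identity of their transcripts was not computed. Hist2h2aa1 was at 5.14 at the lowest, 9.42 at the median and 19.5 FPKM at the highest on day 0, at 2.44, 1.13 and 0 on day 2 and at 0, 0 and 1.64 on day 4. It was at 3.91, 5.47, 3, 8.95 and 4.53 FPKM on day 10 and at 110.3, 84.1, 120.7 and 79.9 on day 20. Hist2h2aa2 was at 18.4, 17.1 and 21.4 FPKM on day 2, when the first copy was lowest, and at 44.1, 19.8, 0 and 36.1 on day 20. In day-20 replicate 3 the whole of the level was listed under Hist2h2aa1, so neither row can be read alone.

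The sum of the pair avoids this split (plot of copies). It was 9.42 to 22.8 FPKM on day 0, 20.9, 18.3 and 21.4 on day 2, and 16.1, 13.8 and 12.7 on day 4. It was 27.4, 26.1, 18.2, 33.0 and 24.0 FPKM on day 10 and 154, 104, 121 and 116 on day 20. The day-20 sums lay above every library of the other days, with a mean of 124 ± 21.7 FPKM (SD, n = 4) against 25.7 ± 5.36 on day 10 (SD, n = 5). Row by row, Hist2h2aa1 fell on day 2 (-2.43, SE 0.37, adjusted p = 4.85e-06) and rose on day 20 over day 10 (4.06, SE 0.36, adjusted p = 1.4e-09). Hist2h2aa2 rose on day 2 (2.01, adjusted p = 0.0331), a call lost without day-0 replicate 3 (1.62) or without any 1 of the day-2 libraries (1.92 to 2.07), and its day-20 difference from day 0 (1.46, adjusted p = 0.0699) was called without day-20 replicate 3 (2.72), day-0 replicate 5 (1.66) or day-0 replicate 7 (1.65).

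**Figure D5:**
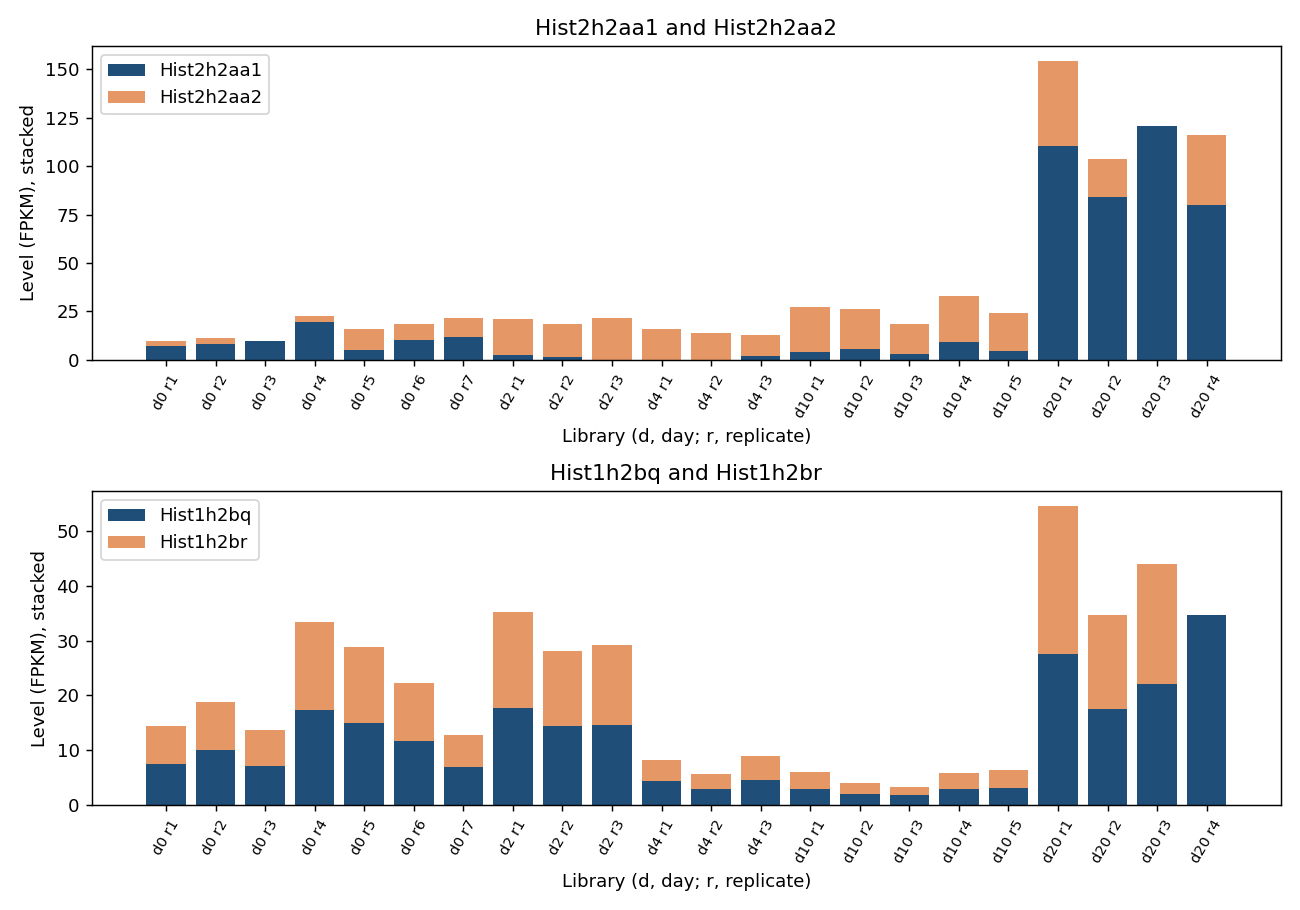
Stacked levels (FPKM) of 2 pairs of copies in each of the 22 libraries (d, day; r, replicate). The Hist2h2aa sums are highest in the 4 day-20 libraries, the Hist1h2bq and Hist1h2br sums of day 20 (34.6 to 54.6) overlap those of day 2 (28.1 to 35.3), and the split between copies varies, with all of the level under 1 copy in day-20 replicate 3 (Hist2h2aa1) and day-20 replicate 4 (Hist1h2bq).

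Hist3h2a and Hist3h2ba encode H2A and H2B at the Hist3 locus and were highest on day 4. Hist3h2ba was at 1.71 at the lowest, 2.39 at the median and 5.49 FPKM at the highest on day 0, and at 9.08, 10.6 and 9.49 on day 2. It was at 68.6, 72.2 and 73.2 FPKM on day 4, 44.3, 41.7, 34.9, 47.4 and 39.1 on day 10, and 29.7, 18.4, 27.6 and 25.1 on day 20. No 2 neighbouring days overlapped. The log2 differences over the 4 steps were 1.50 (SE 0.19, adjusted p = 2.83e-07), 2.76 (SE 0.22, adjusted p = 3.14e-10), -0.78 (SE 0.20, adjusted p = 0.00148) and -0.71 (SE 0.18, adjusted p = 0.00145). Hist3h2a was at 1.46 to 2.27 FPKM on day 0, at 5.03, 4.32 and 5.15 on day 2 and at 18.3, 18.6 and 18.4 on day 4. It was at 12.5 to 15.0 FPKM on day 10 and at 11.4, 10.7, 10.96 and 12.2 on day 20. It rose by 1.74 on day 4 (SE 0.09, adjusted p = 2.02e-13) and remained above day 0 on day 20 by 2.14 (SE 0.07, adjusted p = 6.56e-18). Hist2h2be, an H2B gene of the Hist2 locus, was low, at 0.06 to 0.22 FPKM on day 0, 1.34 to 1.48 on day 4 and 1.51 to 1.77 on day 10, and its neighbouring days did not overlap either.

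In H2B, the core partner of H2A, 5 genes of the Hist1 cluster had their highest mean on day 20. Hist1h2bc was at 10.7 at the lowest, 12.9 at the median and 14.1 FPKM at the highest on day 0, with the day-0 sets intermixed, and at 12.4, 12.8 and 14.8 on day 2. It was at 3.15, 3.35 and 3.25 FPKM on day 4, 7.93, 9.51, 8.36, 9.69 and 9.33 on day 10, and 31.3, 30.4, 34.6 and 32.4 on day 20. It fell by 1.75 (SE 0.09, adjusted p = 1.01e-13) on day 4, with no overlap, and then rose by 1.23 (SE 0.08, adjusted p = 6.49e-12) and 1.74 (SE 0.07, adjusted p = 3.14e-15). Hist1h2be, at 0.08 to 0.25 FPKM on day 0, reached 1.19, 1.17, 1.04 and 0.87 on day 20. It reached 1 FPKM in no library of another day, so its day-20 peak was set by the rule for members.

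Hist1h2bq and Hist1h2br have promoter windows identical at 300 of 300 positions, and their levels were close to each other in all libraries but 1. In day-20 replicate 4, Hist1h2bq was at 34.8 FPKM and Hist1h2br was listed at 0. The sum of the pair was 12.7 at the lowest, 18.8 at the median and 33.5 FPKM at the highest on day 0, and 35.3, 28.1 and 29.3 on day 2. It was 8.23, 5.62 and 8.90 FPKM on day 4, 3.35 to 6.39 on day 10, and 54.6, 34.6, 44.0 and 34.8 on day 20. All 4 day-20 sums thus exceeded the highest on day 0. Hist1h2bq rose on day 20 over day 0 (1.19, SE 0.22, adjusted p = 2.66e-05), whereas Hist1h2br gave 0.03 (SE 0.58, adjusted p = 0.967), or 1.15 and called without day-20 replicate 4.

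Genes that face each other across a short stretch of DNA can be compared directly. In 6 pairs of 1 H2A and 1 H2B member the promoter windows overlapped on opposite strands, by 252 to 279 of 300 bases. In 2 of these pairs, Hist1h2ag with Hist1h2bj and Hist1h2ah with Hist1h2bk, both genes were lower on day 20 than on day 0. Hist1h2ae and Hist1h2bg, which share 279 bases, went opposite ways. Hist1h2ae was at 2.88 to 4.63 FPKM on day 0, at 0.15 to 0.60 on day 10 and at 0.27, 0.35, 0.53 and 1.12 on day 20, a log2 difference between day 20 and day 0 of -1.49 (SE 0.13, adjusted p = 2.18e-10). Hist1h2bg was at 1.60 to 4.24 FPKM on day 0, at 0.88 to 1.46 on day 10 and at 6.03, 6.57, 7.68 and 7.52 on day 20, a difference of 1.12 (SE 0.17, adjusted p = 2.51e-06; not called with quantile normalization). Neither gene's day-20 libraries overlapped its day-0 libraries. In the 3 remaining pairs, Hist1h2bf and Hist1h2bp fell while their partners Hist1h2ad (-0.51, adjusted p = 0.0713) and Hist1h2an (-1.17, adjusted p = 0.0645) did not pass, and Hist1h2ai fell while Hist1h2bl (0.08, adjusted p = 0.814) did not pass.

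H3 genes encode the core histone whose tail carries many regulatory marks, and 7 of the 9 fell between days 2 and 4. Hist1h3h was at 3.03 at the lowest, 7.94 at the median and 8.55 FPKM at the highest on day 0 and at 9.22, 9.65 and 8.39 on day 2. It was at 4.55, 2.44 and 4.26 FPKM on day 4, at 0.62, 0.94, 0, 0.91 and 0.66 on day 10, and listed at 0 in all 4 day-20 libraries. It fell by 1.12 on day 4 (SE 0.27, adjusted p = 0.000994) and by 1.55 on day 10 (SE 0.24, adjusted p = 7.06e-06), with no overlap at either step. Hist1h3i rose first, from 1.35 to 7.04 FPKM on day 0 to 8.48, 11.2 and 8.34 on day 2 (1.44, SE 0.29, adjusted p = 0.000113), and was at 3.28, 3.62 and 4.86 on day 4 and 0 to 0.73 on day 10. Hist1h3c was at 4.07 to 10.0 FPKM on day 0, at 5.46, 5.46 and 3.16 on day 2, at 2.10, 1.96 and 1.54 on day 4 and at 0.17 to 0.64 in later libraries.

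The 2 H3 genes of the Hist2 locus differed from each other. Hist2h3b was spread from 0.41 to 6.94 FPKM on day 0 and from 0 to 1.13 on day 20, with overlap; it was lower on day 20 (-1.16, SE 0.40, adjusted p = 0.00955), a call lost without day-0 replicates 4 to 7 (-0.66). Hist2h3c2 was the only one of 9 H3 genes called higher on day 20 than on day 0. It was at 0.91 to 2.12 FPKM on day 0, 0.85, 0.26 and 0.10 on day 4, 1.36 to 1.86 on day 10 and 3.12, 2.40, 4.33 and 2.78 on day 20. The day-20 libraries lay above all of day 0 (0.72, SE 0.16, adjusted p = 0.000223), a call lost with quantile normalization.

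H4 genes encode 1 core histone from many loci, and 5 of the 9 fell between days 2 and 4 and 2 rose between days 10 and 20. Hist1h4k, the highest of them, was at 4.17 at the lowest, 10.9 at the median and 26.6 FPKM at the highest on day 0 and at 10.01, 6.35 and 10.97 on day 2. It was at 7.54, 4.95 and 8.62 FPKM on day 4, at 1.16 to 3.64 on day 10 and at 6.05, 1.26, 3.64 and 5.65 on day 20. Of the 4 steps the one to day 10 was called (-1.49, SE 0.42, adjusted p = 0.00325). The step to day 20 (0.74, adjusted p = 0.0866) was called without day-20 replicate 2 (1.10), day-10 replicate 4 (0.92) or day-0 replicate 7. The difference between day 20 and day 0 (-1.24, adjusted p = 0.00288) was -0.70 and not called without day-0 replicates 4 to 7. Hist1h4b was at 3.17 to 4.84 FPKM in day-0 replicates 1 to 3 and at 7.37 to 12.7 in replicates 4 to 7. It was at 8.01, 6.46 and 6.70 FPKM on day 2 and at 1.05, 1.27 and 0 on day 4, a fall of 2.27 (SE 0.38, adjusted p = 1.58e-05) with no overlap. Its later values were 0 to 0.44 FPKM on day 10 and 1.22, 1.62, 0.53 and 0.92 on day 20.

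Hist1h4n fell from 2.76 to 16.2 FPKM on day 0 to 0, 0.96, 1.68 and 0.72 on day 20 (-2.08, SE 0.38, adjusted p = 2.69e-05). Hist1h4m was at 0 to 12.2 FPKM on day 0 and listed at 0 in every library of days 4 and 10. Hist1h4i ran differently, with tight day-0 libraries of 4.45 to 5.72 FPKM in which the sets were intermixed. It was at 7.45, 5.81 and 6.73 FPKM on day 2, 1.85, 2.10 and 1.99 on day 4, 2.99, 2.24, 2.46, 1.85 and 2.26 on day 10, and 6.88, 4.12, 5.84 and 6.73 on day 20. It fell by 1.36 on day 4 (SE 0.13, adjusted p = 6.52e-09) and rose by 1.02 on day 20 over day 10 (SE 0.11, adjusted p = 2.26e-08), both without overlap. The 2 ends were not called different (0.18, SE 0.10, adjusted p = 0.0937), though without day-20 replicate 2 the difference was 0.32 and called. Hist1h4h gave a like pair of ends, with 0.41 to 9.03 FPKM on day 0 and 2.83, 3.59, 5.65 and 2.91 on day 20 (0.19, SE 0.34, adjusted p = 0.6).

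The replacement histones, made outside S phase as well, summed to 2687 to 3019 FPKM on day 0 and 1544 to 1673 on day 20, above the 49 members on both days, and 8 of 11 were lower and 2 higher on day 20 than on day 0 (median log2 difference -0.42), where 35.5% of all genes tested were called lower and 55.3% higher. H1f0, a linker histone known from differentiated cells, went from 15.4 ± 0.859 FPKM on day 0 (SD, n = 7) to 227 ± 9.38 on day 4 (n = 3) and was at 93.2 ± 9.0 on day 20 (n = 4). H1fx, another linker histone, was at 32.2 ± 2.35 on day 0, 153 ± 7.60 on day 2, 147 ± 4.15 on day 4 and 23.8 ± 2.75 on day 20. The 3 linker genes H1f0, H1fx and Hist1h1c thus had their highest means on different days, 4, 2 and 20. H2afz, the H2A.Z variant found at promoters, fell from 859 ± 68.3 to 159 ± 13.6 FPKM (-2.42, SE 0.06, adjusted p = 4e-20), and Cenpa, the H3 variant of centromeres, from 195 ± 38.8 to 17.7 ± 3.37 (-3.38, SE 0.13, adjusted p = 1.4e-16). H3f3a, which encodes H3.3, was at 617 ± 18.7 and 441 ± 18.8 FPKM at the 2 ends. H3f3b, which encodes the same protein, was at 534 ± 14.1 and 498 ± 11.5, and its small difference (-0.10) was 0.36 with quantile normalization and 0.14 with libraries rescaled to 1 sum.

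Genes for making and loading histones moved as follows. Of 17 genes of histone mRNA processing, 15 were lower and 2 higher on day 20 than on day 0 (median -0.71), and at the steps to day 4 and day 10, 5 and 15 fell and 2 and 1 rose. Of all genes tested, 35.5% were called lower between the ends, 34% on day 4 and 32.3% on day 10, so the 5 of 17 on day 4 were near that share. Slbp, which binds the stem-loop, was at 92.5 ± 5.43 FPKM on day 0, 102 ± 3.21 on day 2, 63.2 ± 0.938 on day 4, 38.3 ± 1.77 on day 10 and 31.6 ± 0.814 on day 20 (day 20 minus day 0, -1.52, SE 0.04, adjusted p = 2.9e-19). Npat, a coactivator of histone gene transcription, was at 13.6 ± 0.587 FPKM on day 0 and 7.93 ± 0.606 on day 20. Lsm10, of the U7 particle that cuts histone pre-mRNA, rose (0.72, SE 0.09, adjusted p = 7e-08), and Lsm11 of the same particle gave 0.12 at the ends, or -0.77 with quantile normalization. Of 19 histone chaperones, which carry histones to DNA, 17 fell and 0 rose between the ends (median -1.38, with 35.5% of all genes tested called lower and 55.3% higher), among them Nasp, from 416 ± 26.0 to 34.7 ± 3.18 FPKM, and Hat1, which acetylates new H4, from 289 ± 9.20 to 27.8 ± 3.20.

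S phase genes fell more often than they rose at every step, and all 23 were lower on day 20 than on day 0 (median -2.59). Their counts were 6 higher and 13 lower on day 2, 0 and 22 on day 4, 0 and 23 on day 10, and 3 and 12 on day 20 over day 10. Of all genes tested, 32.1%, 34%, 32.3% and 38.1% were called lower at these steps, and 35.5% between the ends. Mcm2, of the replicative helicase, was at 157 ± 3.74 FPKM on day 0, 122 ± 5.21 on day 2, 61.0 ± 2.40 on day 4, 18.4 ± 0.871 on day 10 and 12.8 ± 1.04 on day 20. The summed level of the 23 genes was 2118 to 2162 FPKM on day 0 and 312 to 324 on day 20. In the day-0 libraries that sum spanned little, though Ccne1, 1 of the 23, differed between the 2 day-0 sets as given above. The 5 markers of dividing cells (Mki67, Top2a, Cdk1, Ccnb1 and Aurkb) summed to 858 to 948 FPKM on day 0, 729 to 737 on day 2, 360 to 372 on day 4, 99.3 to 106 on day 10 and 77.8 to 83.1 on day 20. Of these markers, Mki67, Top2a, Ccnb1 and Aurkb lay higher in all of day-0 replicates 4 to 7 than in replicates 1 to 3. Ccnb1 was at 237 to 242 and 213 to 224 FPKM in those sets, and Cdk1 overlapped. The summed level of the histone members was higher in every day-20 library (301 to 407 FPKM) than in every day-10 library (124 to 176). The sums of S phase genes and of dividing-cell markers were lower on day 20 than on day 10. Of the 5 markers, 4 were called lower at that step and Mki67 was called higher (means 6.93 and 8.09 FPKM). Of the 49 histone members, 11 were called higher and 6 lower. Much of the higher histone sum lay in few genes. The means of Hist2h2aa1 with Hist2h2aa2 were 25.7 and 124 FPKM, and those of Hist1h1c 16.5 and 66.0.

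The mixture of cells changed over the same days. Pluripotency markers (Pou5f1, Nanog, Zfp42, Esrrb) summed to 1539 to 1742 FPKM on day 0, where the label is stem cells, and to 62.1 to 69.7 on day 2 and 8.09 to 14.2 from day 4 on. All 4 fell on day 2 and day 4. Neuron markers summed to 990.4 to 1015 FPKM on day 4, the day on which the Hist3 genes were highest, and all 4 rose on day 4. They summed to 32.1 to 36.1 FPKM on day 0, 448 to 477 on day 10 and 141 to 146 on day 20. Most of the day-4 sum was Tubb3, with a mean of 688 FPKM. Rbfox3 went the other way, from a mean of 14.2 FPKM on day 4 to 29.9 on day 10 (called higher). Map2 did not pass at that step. Neural progenitor markers summed to 24.5 to 35.6 FPKM on day 0, 147 to 163 on day 2 and 135 to 150 on day 4. Their sums were 44.9 to 49.3 FPKM on day 10 and 25.1 to 28.8 on day 20. From day 2 to day 4 these markers differed. Pax6 went from a mean of 111 to 52.3 FPKM and Sox1 from 23.0 to 11.6, while Nes rose from 19.3 to 77.8. Astrocyte markers summed to 4.30 to 6.57 FPKM on day 0, 317 to 358 on day 10 and 1543 to 1692 on day 20, with 3 of 3 higher on day 20 than on day 0. From day 10 to day 20, Gfap and Aqp4 rose, while Slc1a3 went from a mean of 151.5 to 79.1 FPKM (called lower). Epithelium markers summed to 0.67 to 6.13 FPKM on day 0, 22.8 to 34.5 on day 10 and 6585 to 7217 on day 20, with 4 of 4 higher and Tff1 at 0 in every day-4 library. Endoderm markers summed to 5.99 to 26.4 FPKM on day 0 and 301 to 368 on day 20 (4 of 4 higher), and mesenchyme markers to 106 to 122 and 94.7 to 124 (2 of 3 higher, 1 lower). Between these ends the mesenchyme sum was 20.8 to 21.3 FPKM on day 2, 1.76 to 3.51 on day 4 and 30.9 to 34.5 on day 10. Most of its day-0 sum was Tagln (mean 97.7 FPKM), the marker that was lower on day 20. Acta2, called higher on day 20, overlapped day 0. The part of these cells in the histone gene levels was not tested.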

How the data were processed

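RNA was taken with RNeasy columns and libraries were made from polyA RNA with NEBNext Ultra reagents, per the labels' protocols. The authors deposited 1 table of FPKM values, with a column per library, made with RSEM and mm9 per the submitters' processing notes. The unit was taken from the values, since library sums ran from 472122 to 678222 where TPM over all genes would share 1 sum, and the annotation is not given in the sources used here. Total read counts are not given either, so the depth, and with it the precision of low values, is unknown. RSEM divides reads among copies by estimation, so values of near-identical genes are uncertain one by one, and a 0 can be such an estimate. No column was left unmapped, and the 1 table of ATAC openness was not analysed here.

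The 14982 genes that reached 1 FPKM in 3 or more libraries were fitted with limma (version 3.58.1, R version 4.3.3) after adding 1 and taking log2, with 1 mean per day over 22 libraries, the empirical Bayes trend and 17 residual degrees of freedom. p-values are 2-sided and Benjamini-Hochberg adjusted over all genes tested in each comparison, and 0.05 was the threshold. The added 1 shrinks the log2 differences of genes at low levels. On simulated data for day 20 against day 0 with 14982 genes, 98% of genes changed 2-fold and 100% of genes changed 3-fold were recovered. The changed genes were drawn from those with a day-0 mean of 2 FPKM or more, and the folds were set on FPKM + 1. Recovery at lower levels, where many histone members lie, was not tested. Alternatives were other pseudocounts, no filter, 2 other scalings, no trend, only the days compared, a replicate block, either day-0 set left out and each library left out in turn.

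The members, lists and day-0 sets were chosen with earlier results of these data known, so no list is independent evidence. Named genes were the 4 most abundant members of each class, in each comparison the called members without overlap whose changes up and down were largest (2 each), 9 genes fixed by name and the 2 largest called changes in each direction of each list on day 20 against day 0. The text gives a selection of these. Hist1h2be, Hist2h2be, Hist2h3c2, Hist1h4h and the genes of the facing pairs were added after their values were seen. Promoter windows come from RefSeq (GRCm38.p6): 66 of 67 symbols matched 1 RefSeq gene by an older name, and Hist1h2ap matched more than 1 and was left out.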

Additional observations from a re-analysis of the deposited data

Results flagged for a closer look

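In groups of 4 to 10 libraries, 1 library stood apart from the rest in 9 of 70 groups tested over the 24 named histone genes. The counts were 0 of 54 over other named genes and 0 of 24 over sums, where chance alone gives about 1 in 20. That rate need not hold for values at or near 0, which many histone genes have, so these shares are not a like comparison. Hist1h4k was at 26.64 FPKM in day-0 replicate 7 and at 4.17 to 13.22 in the other 6 libraries. Hist1h3i was at 7.04 FPKM in day-0 replicate 6 (others 1.35 to 3.26) and at 1.71 in day-20 replicate 1 (others 0.37 to 0.51). Hist3h2a was at 12.5 FPKM in day-10 replicate 3, below the other libraries at 14.73 to 15.02, and the sum of all 49 genes was lowest of that day in the same library, at 123.9. Hist1h1e was at 0.52 FPKM in day-0 replicate 2 (others 0.29 to 0.37) and at 0.29 in day-10 replicate 3 (others 0.38 to 0.41). Hist1h3c was at 0.64 FPKM in day-10 replicate 4 (others 0.17 to 0.29). Hist1h4m was at 2.73 FPKM in day-20 replicate 1 and Hist1h2af at 0.48 in day-20 replicate 2, with the other 3 libraries listed at 0 in both cases. Beside values tied at 0, any value above 0 stands apart.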

How the results depend on the processing

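The 29 genes lower and 11 higher on day 20 than on day 0 were called alike at a pseudocount of 0.1, with no filter on low values, without the variance trend and with only the days compared. Quantile normalization gave 11 higher and 4 lower for day 2 against day 0, 3 higher and 34 lower for day 10 against day 4, and 6 higher for day 20 against day 0, where the median over all genes tested went from 0.38 to -0.10 (0.58 when each library was rescaled to 1 sum). Quantile normalization also took that median from 0.07 to -0.05 for day 10 against day 4 and from -0.02 to -0.12 for day 20 against day 10, and the rescaling from 0.01 to 0.22, 0.07 to 0.20 and -0.02 to -0.17 for the 3 later steps. Quantile normalization reversed Hist1h1e (-0.54 for day 20 against day 0), H3f3b (0.33 for day 4 against day 2 and 0.36 for day 20 against day 0) and Lsm11 (-0.0598 and -0.77), and rescaling to 1 library sum reversed H3f3b (0.084 and 0.14). Without day-0 replicates 4 to 7, 31 genes were called for day 2 against day 0, 30 of them higher, and 17 were higher for day 20 against day 10. Without replicates 1 to 3, 8 were lower for day 2 against day 0. The cause was not tested. Leaving out 1 library moved no count of members by more than 1.5 times, and changed 66 of 2640 calls of named histone genes.

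Replicate numbers gave no sign of pairing the libraries: deviations from the day means correlated at -0.146 to 0.219 between same-numbered libraries (34 pairs) and at -0.356 to 0.295 between others (154 pairs). With so few libraries per day, a weak pairing could be missed. With the number as a replicate block, 22 members were higher and 1 lower for day 2 against day 0, 3 and 31 for day 4 against day 2, 5 and 26 for day 10 against day 4, 13 and 6 for day 20 against day 10, and 12 and 29 for day 20 against day 0. Values under 5 FPKM, the highest day mean of 26 of the 49 genes, rest on an unknown number of reads, and 96 of 1078 values were listed at 0.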
